A study of Mus musculus with 10 samples.

Results

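Inspiratory neurons of the preBötzinger complex (preBötC) taken on the day of birth were set against those taken on postnatal day 2 or 3. The age given for each neuron in the sample labels chose the members: 4 neurons of P0 (samples 1, 3, 5 and 8) and 5 neurons of P2 to P3 (samples 2 and 9 at P2, samples 4, 6 and 7 at P3), which makes 9 of the 10 neurons in the series. The remaining neuron, sample 10, was recorded at P1; it belongs to neither group and is shown beside them. Each transcriptome came from 1 patch-clamped neuron whose contents were aspirated into the pipette after recording and amplified as full-length cDNA (Patch-Seq). Fragments were counted for 55367 genes, and levels are given as FPKM, fragment counts scaled to gene length in kilobases and to each neuron's total. CPM is the same without the length.

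The P0 group held a pair of Dbx1-derived neurons (sample 1, Type-2; sample 5, Type-1) and a pair of neurons from wild-type CD-1 mice (samples 3 and 8, physiological type Unknown). The P2-P3 group held a pair of Dbx1-derived Type-1 neurons (samples 6 and 7) and 3 wild-type (WT) neurons (samples 2 and 9, Unknown; sample 4, Type-1). Sample 10 was a WT neuron of Unknown type. Dbx1-derived neurons came from pups of Dbx1Cre mice crossed with Ai148 mice, in which Cre recombinase turns on the calcium indicator GCaMP6f; these carried a C57Bl/6J or mixed C57Bl/6J and CD1 background, so mouse line, reporter and background went together. The fluorescence marks descent from cells that once expressed Dbx1, and WT neurons carried no such mark and were chosen for firing in phase with hypoglossal motor output. Figure legends of the study and the sample labels differ on which sample numbers came from which mouse line. The types in those legends, and the number of neurons of each type and line in the study's main text, match the labels. The labels were followed, and every value within a line rests on them. No animal is named for any neuron, and age was mixed with line, physiological type and cell identity, so the 9 neurons were treated as 1 set of cells per age: no test between ages was made, SDs are over neurons, and differences are descriptions of these cells.

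The preBötC is a small region of the ventral medulla that generates the inspiratory rhythm. Its rhythm-generating core is made largely of glutamatergic interneurons that descend from Dbx1-expressing progenitors, intermingled with GABAergic and glycinergic neurons. Around birth, brainstem neurons go from episodic fetal breathing movements to continuous air breathing, while axons and synapses are still growing, chloride transport matures, and fuel use changes from placental glucose to milk-derived fat and ketone bodies. Gene lists for these processes and for other functions of the cell, 26 in all, were followed.

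Several libraries stood apart from the rest. Samples 1, 2, 3 and 4 had the lowest median levels over the genes looked at (1.09 to 2.27 in log2(FPKM + 1), against 3.21 to 3.72 in the other neurons), although counted fragments per neuron, 21392146 to 36629393, overlapped. The study reports that these samples also had the lowest cDNA concentrations, though all passed its threshold. It describes an added peak of genes at very low levels in them. Sample 4 (P3) held all 8 microglial markers at 1 FPKM or more, with a summed level of 15054 FPKM against 0.667 to 1931 FPKM in the other 8 neurons compared, and its summed neuronal markers were only 58.4 FPKM, against 761 to 4670 FPKM. Sample 9 (P2) was the sole neuron with the cholinergic motoneuron set: 7 of its 9 markers reached 1 FPKM, the vesicular acetylcholine transporter Slc18a3 at 444 FPKM among them, and all others summed to 24.7 FPKM or less. Astrocytic markers summed to 464, 5450, 76.7 and 1766 FPKM at P0 (samples 1, 3, 5 and 8) and to 2773, 15.8, 5005, 3.98 and 232 FPKM at P2-P3 (samples 2, 9, 4, 6 and 7). Of the 10 markers, 3, 7, 4 and 9 reached 1 FPKM at P0 and 7, 1, 3, 1 and 1 at P2-P3, in the same order of samples. Oligodendrocyte lineage markers summed to 0.511 to 338 FPKM at P0 and to 0.110 to 205 FPKM at P2-P3. Endothelial, mural, ependymal and erythroid markers summed to at most 18.8 FPKM in any neuron. Sex is not given in the labels; Xist reached 1 FPKM in 1 of 4 P0 and 3 of 5 P2-P3 neurons, and no neuron held a Y-linked gene at 1 FPKM.

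Transmitter genes were unevenly spread over the ages as well. The markers of GABAergic and glycinergic neurons summed to 305, 78.0, 8.74 and 11.1 FPKM in P0 samples 1, 3, 5 and 8, and to 6.26, 0.0792, 2.71, 0.986 and 5.61 FPKM in P2-P3 samples 2, 9, 4, 6 and 7, so the groups did not overlap. Gad1, which makes GABA, was at 71.8, 37.2, 0.0179 and 8.28 FPKM at P0, did not exceed 0.194 FPKM at P2-P3 and stood at 92.0 FPKM in the P1 neuron. The vesicular glutamate transporter Slc17a6 was high in 2 neurons of each age, at 101 and 230 FPKM in P0 samples 5 and 8 and at 158 and 156 FPKM in P2-P3 samples 6 and 7, and did not exceed 1.85 FPKM elsewhere. More neurons with inhibitory genes at P0 and a lower level per neuron later cannot be told apart in these cells.

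**Figure D1:**
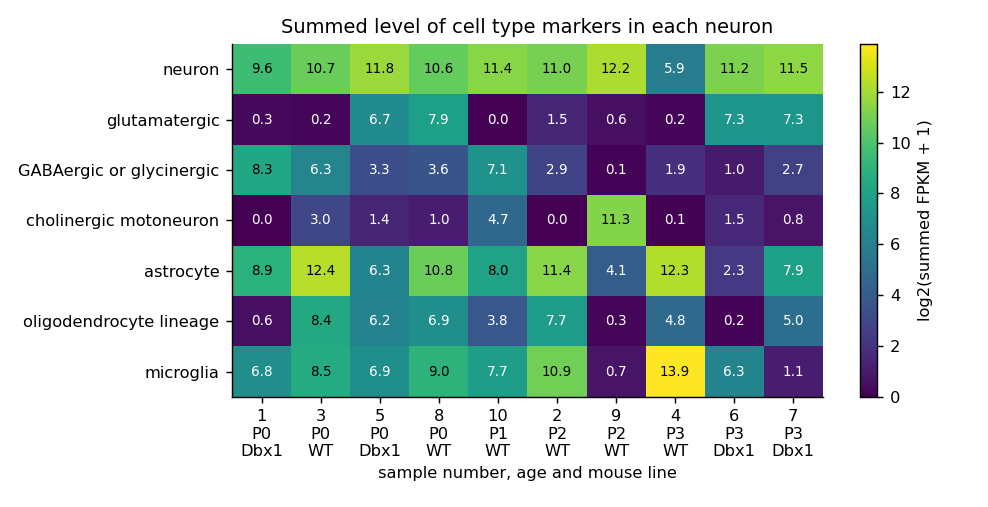
Summed level of 7 sets of cell type markers, as log2(summed FPKM + 1), in each neuron, with P0 neurons on the left, the P1 neuron in the middle and P2 to P3 neurons on the right. Sample 4 carries the highest microglial sum, 15054 FPKM, and the lowest neuronal sum, 58.4 FPKM, and sample 9 alone carries the cholinergic motoneuron set.

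Over all 9 neurons, those of one age were on average no more alike than those of different ages. The question was whether neurons of one age resembled each other more than neurons of the other age, over the 8115 genes with at least 1 FPKM in at least 4 of the 9 neurons. The Spearman correlation of FPKM averaged 0.437 ± 0.103 (SD, n = 6 pairs) within P0, 0.432 ± 0.114 (SD, n = 10 pairs) within P2-P3, and 0.450 ± 0.124 (SD, n = 20 pairs) between the ages. Pairs share neurons and depth, so these are descriptions. Without samples 1 and 4, which formed 15 of the 36 pairs, the means were 0.517, 0.490 and 0.523, in the same order. Without sample 4 alone they were 0.437, 0.490 and 0.475, so that the later neurons were then slightly more alike than neurons of different ages, by less than the SD over pairs.

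The closest neighbour of 6 of the 9 neurons was a neuron of the other age. The highest correlation of all joined the Dbx1-derived Type-1 neurons 5 (P0) and 6 (P3), at 0.675, and sample 7 (P3) was also closest to sample 5, at 0.636. Sample 9 was closest to sample 5 (0.594), sample 2 to sample 8 (0.506) and sample 1 to sample 7 (0.401). Samples 3, 4 and 8 were closest to a neuron of their own age. The P1 neuron was closest to the P0 neuron 5, at 0.703, and its correlations with the 4 P0 neurons (0.343 to 0.703) and the 5 P2-P3 neurons (0.373 to 0.633) overlapped.

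**Figure D2:**
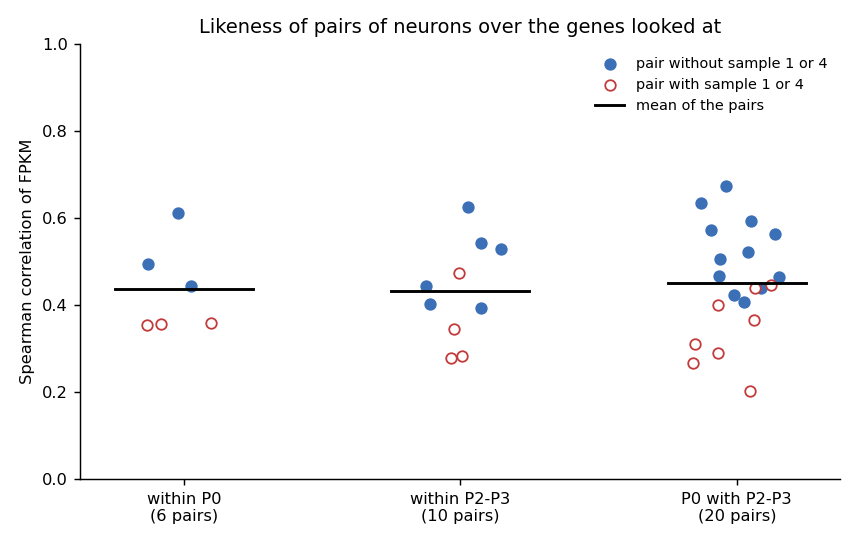
Spearman correlation of FPKM for each pair of neurons over 8115 genes, within P0, within P2-P3 and between the ages; lines are means over pairs and open points are pairs that include sample 1 or 4. The 3 means lie between 0.432 and 0.450, and the lowest points of each column are open.

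Few genes separated the ages in every neuron. A gene was called when all neurons of one age lay above all neurons of the other, the means of log2(FPKM + 1) differed by at least 1, and the lowest neuron of the higher age had at least 1 FPKM. The added 1 keeps values near 0 from dominating and understates the change of low genes. By this rule 45 of 8115 genes (0.555%) were higher at P2-P3 and 38 (0.468%) were lower, 83 in all (1.02%). On the TPM scale, which fixes the sum of levels in each neuron, the split turned to 39 genes higher (0.445% of 8773) and 51 lower (0.581%), with 28 of the 45 and 29 of the 38 still called, and the median difference over all genes moved from 0.03 to -0.09 in log2. Without sample 4, the microglia-rich library, 111 genes were higher (1.46% of 7581) and 60 lower (0.791%), 171 in all (2.26%), and 41 of the 45 and all 38 were still called. Of the genes named below, Degs1, Pole4, Shisa5, Urm1, Ndufa4, Atp5d, Ndufab1, Trmt112, Trmt112-ps1, Gm10053, Gm10108, Dcx, Lhpp and Mbd2 were not called on the TPM scale. Likewise, Polr3d, Ndufa4, Trmt112, Gm10108, Gm10221, Ccl19-ps3, Gm5586, Aspscr1, Celf1, Lhpp, Mir692-1 and Scamp1 were not called with library sizes rescaled by edgeR's TMM factors. With that scaling 37 genes were higher (0.459% of 8067) and 31 lower (0.384%). Fewer neurons make it easier for groups not to overlap, and the genes looked at then needed 1 FPKM in as many neurons as the smaller group held. A gene already called cannot come to overlap when neurons are left out. It could be lost only by a mean difference under 1, so the rule largely fixes how many were still called.

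The separation was narrow for most called genes. For the 45 genes higher at P2-P3 the lowest later neuron had a median of 1.21 times the level of the highest P0 neuron, and 7 genes reached a ratio of 2. For the 38 lower genes the corresponding median was 1.30, and again 7 genes reached 2. Low values were concentrated in a few neurons: 31 of the 45 were under 1 FPKM in sample 1 and 18 in sample 3, against 9 in sample 5 and 10 in sample 8, and 26 of the 38 were under 1 FPKM in sample 2, 17 in sample 4 and 19 in sample 9, against 10 in sample 6 and 12 in sample 7. Of the lower genes, 22 had their highest P0 level in sample 1 and 15 in sample 3. Without samples 1 and 4, 123 genes were higher (1.38% of 8930) and 218 lower (2.44%). Of the genes called before, 30 of the 45 and all 38 were still called, and only a mean difference under 1 could lose one.

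Called genes differed in both mouse lines by the same sign, which the rule itself fixes, but not by the same size. The median difference of the 45 was 2.15 over all neurons, 2.22 within Dbx1-derived neurons, 2.08 within WT neurons, and 0.813 between the Dbx1-derived Type-1 neuron of P0 (sample 5) and those of P3 (samples 6 and 7), all in log2(FPKM + 1). For the 38 the corresponding medians were -2.84, -1.56, -3.33 and -0.863. The P1 neuron lay within the P2-P3 range for 23 of the 45 and within the P0 range for 14; for the 38 it lay within the P0 range for 15, within the P2-P3 range for 13 and between the ranges for 8.

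Among the genes higher at P2-P3, Nup62 separated the ages most widely. Nup62 encodes a nucleoporin of the central channel of the nuclear pore (GRCm38 chromosome 7, 44816088 to 44830812, plus strand). It was at 0.0983, 0.0112, 0.0383 and 0.0923 FPKM in P0 samples 1, 3, 5 and 8. At P2-P3 it was at 60.5, 20.03, 2.68, 63.0 and 38.4 FPKM in samples 2, 9, 4, 6 and 7, and the P1 neuron had 36.1 FPKM. Every P0 neuron was thus near 0 and every older neuron, P1 included, was well above it, with sample 4 the lowest of the older ones. The mean of log2(FPKM + 1) was 0.08 ± 0.06 (SD, n = 4 neurons) against 4.70 ± 1.71 (SD, n = 5), a difference of 4.62, with 5.55 within Dbx1-derived and 4.00 within WT neurons. Summed over each age, 18 fragments were counted at P0, 0.156 CPM (exact Poisson 95% interval 0.0922 to 0.246), and 16221 at P2-P3, 112 CPM (110 to 114); these intervals cover counting error only. Its exons overlap those of Il4i1 on the same strand over 97 bases and those of Atf5 on the opposite strand over 82 bases.

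Eea1, whose product tethers early endosomes, had a similar split between P0 and P2-P3 but not at P1. It was at 0.0292, 0.00669, 0.0199 and 0.0510 FPKM in P0 samples 1, 3, 5 and 8, and at 17.9, 8.54, 1.99, 3.15 and 4.68 FPKM in samples 2, 9, 4, 6 and 7. The P1 neuron had no fragment, which allows up to 0.0983 CPM. The difference in log2(FPKM + 1) was 2.69. Smarcc1, a core subunit of the SWI/SNF chromatin remodeller, was at 2.85, 0.357, 2.14 and 0.0433 FPKM at P0 and at 9.73, 21.4, 23.3, 11.1 and 24.2 FPKM at P2-P3, with 12.0 FPKM at P1 and a difference of 3.13. Polr3d, a subunit of RNA polymerase III, was under 0.03 FPKM in 3 P0 neurons and at 1.17 FPKM in sample 3, and ranged from 1.46 to 26.6 FPKM at P2-P3, a difference of 2.89. Urm1, a ubiquitin-like protein that donates sulphur to transfer RNA, was at 0.0219, 0.00751, 1.32 and 1.67 FPKM at P0 and at 1.99 to 16.01 FPKM at P2-P3, a difference of 2.63. For these 5 genes, Nup62 included, the differences in samples 5 and 8 against 6, 7 and 9, all outside the low-level libraries 1 to 4, were 5.14, 2.55, 3.39, 3.34 and 2.38.

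The other 7 of the 12 genes named as most different were near 0 in P0 samples 1 and 3 and higher in samples 5 and 8, as was Urm1. Degs1, the desaturase that turns dihydroceramide into ceramide, was at 0.0361, 0.0372, 20.3 and 13.7 FPKM in samples 1, 3, 5 and 8 and at 24.6 to 63.9 FPKM at P2-P3. Pole4, a small subunit of DNA polymerase epsilon, was at 0.112, 0.0768, 46.2 and 43.3 FPKM against 47.9 to 88.8 FPKM. Tgs1, which adds the trimethylguanosine cap to small nuclear RNAs, was at 0.0528, 0.0121, 2.39 and 1.24 FPKM against 7.07 to 86.0 FPKM. The histone gene H2bu2, the ADP-ribose hydrolase gene Nudt9, the chaperone gene Cnpy3 and Shisa5 had the same arrangement. Over all 9 neurons these 7 differed by 2.79 to 3.95 in log2(FPKM + 1), and without samples 1 to 4 by 0.49 (Pole4) to 1.81 (Tgs1).

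A further pair of genes, chosen after their values were seen, were separated without any neuron near 0. Tmem258, a subunit of the oligosaccharyltransferase of the endoplasmic reticulum, was at 10.2, 10.9, 17.3 and 10.7 FPKM in P0 samples 1, 3, 5 and 8 and at 39.7, 32.9, 89.0, 76.3 and 46.8 FPKM in P2-P3 samples 2, 9, 4, 6 and 7. Its difference was 2.05 over all neurons, 2.08 in each mouse line and 1.73 among Dbx1-derived Type-1 neurons, with 27.1 FPKM at P1, between the ranges. Naa20, the catalytic subunit of an N-terminal acetyltransferase, was at 10.3, 5.09, 12.9 and 22.8 FPKM against 32.3, 50.7, 52.9, 58.1 and 36.8 FPKM, a difference of 1.91 that was also 1.91 in each line.

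Among the genes lower at P2-P3, Clba1 was the counterpart of Nup62. Clba1 encodes a protein with a clathrin-binding box (chromosome 12, 112808937 to 112816252, plus strand). It was at 11.8, 89.1, 20.3 and 19.5 FPKM in P0 samples 1, 3, 5 and 8. At P2-P3 it had no fragment in sample 2 and 0.0231, 0.0347, 0.0162 and 0.0596 FPKM in samples 9, 4, 6 and 7. The P1 neuron, at 17.2 FPKM, lay with the P0 neurons, whereas for Nup62 it lay with the later ones. The mean of log2(FPKM + 1) was 4.73 ± 1.22 (SD, n = 4 neurons) against 0.04 ± 0.03 (SD, n = 5), a difference of -4.70, with -3.99 within Dbx1-derived and -5.40 within WT neurons. Fragments summed to 8401 at P0, 72.6 CPM (71.0 to 74.2), and to 7 at P2-P3, 0.0483 CPM (0.0194 to 0.0995).

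Rngtt, the mRNA capping enzyme (chromosome 4, 33310311 to 33502614, plus strand), was at 3.80, 24.9, 14.5 and 2.95 FPKM in P0 samples 1, 3, 5 and 8. It was at 0.0233, 0.0383, 0.0144, 0.00448 and 0.231 FPKM in samples 2, 9, 4, 6 and 7, and at 7.74 FPKM at P1. Again the P1 neuron lay with P0, and the difference was -3.14. Gak, a kinase that helps to strip clathrin from vesicles, was at 59.4, 34.9, 27.0 and 19.5 FPKM at P0 and 26.7 FPKM at P1. At P2-P3 it was at 0.244, 0.0422, 0.0844 and 0.206 FPKM in samples 2, 9, 4 and 7, and sample 6 alone had a clear level, 6.82 FPKM. The difference was -4.32, or -4.34, -2.85 and -3.48 for Clba1, Rngtt and Gak in samples 5 and 8 against 6, 7 and 9.

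**Figure D3:**
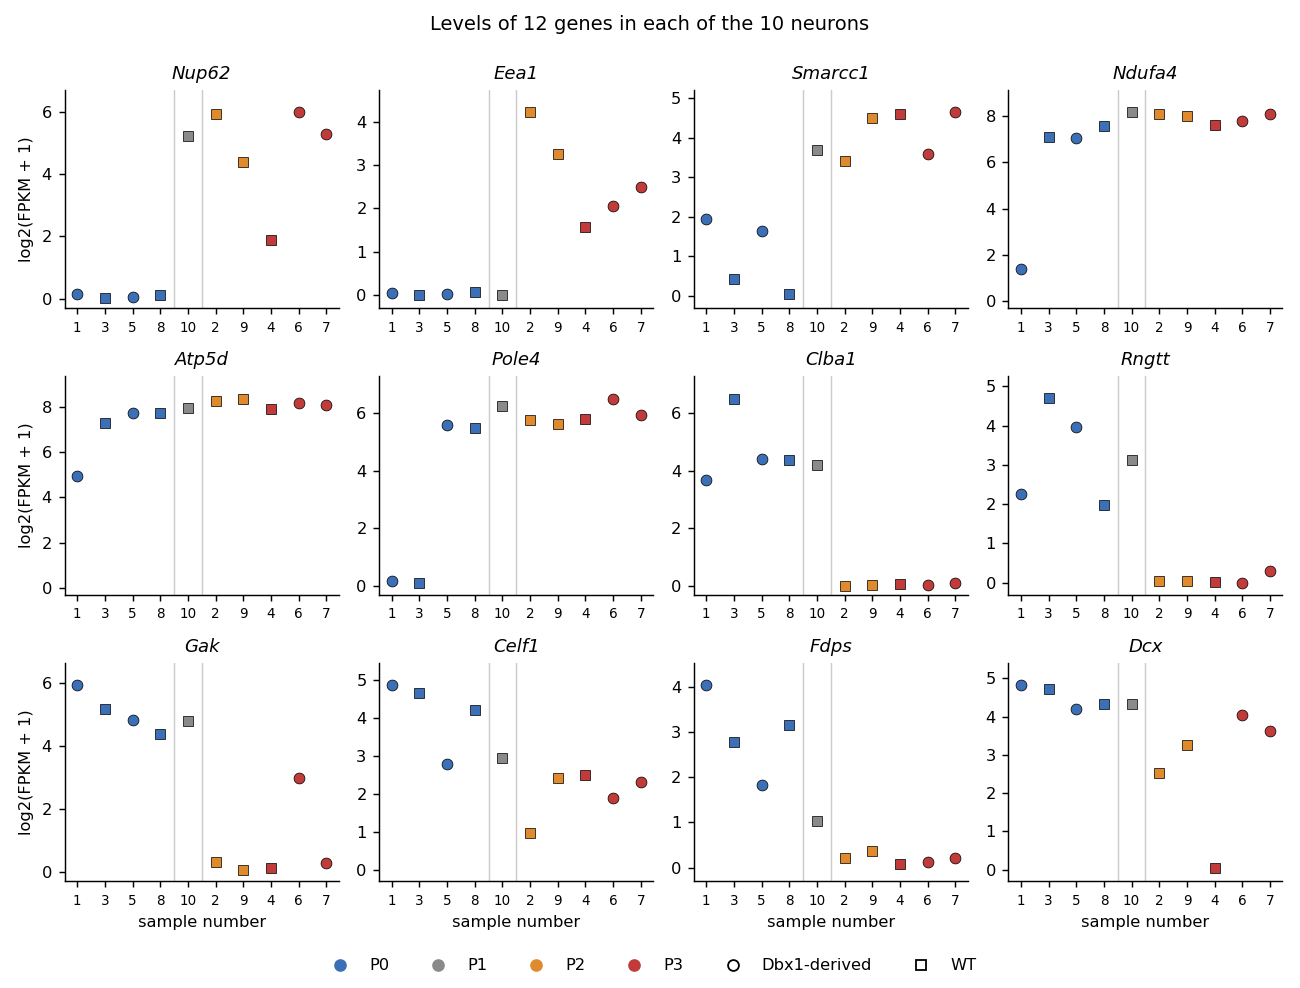
Levels of 12 genes in log2(FPKM + 1) in each neuron, 1 point per neuron, with P0 left, P1 in the middle and P2 to P3 right; circles are Dbx1-derived and squares WT neurons, and colours mark the day of age. Nup62 and Clba1 are at 0.0983 FPKM or less in every P0 neuron and 0.0596 FPKM or less in every P2-P3 neuron, respectively, whereas Ndufa4 and Atp5d are set apart mainly by sample 1 and Pole4 by samples 1 and 3.

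The remaining lower genes with the largest differences belonged to varied functions. Mbd2, which binds methylated DNA, was at 40.9, 34.9, 7.33 and 5.35 FPKM at P0 and at 0 to 4.48 FPKM at P2-P3, with the highest later level in sample 6, and its difference was -3.38, or -1.99 without samples 1 to 4. Kctd5, a cullin-3 adaptor, was at 87.0, 44.5, 28.6 and 51.0 FPKM against 17.0, 0.109, 14.5, 17.9 and 0.146 FPKM, a difference of -3.10 or -3.77 without samples 1 to 4. Aspscr1, a tether of glucose transporter vesicles, differed by -3.09 and overlaps an antisense transcript. Scamp1, a secretory carrier membrane protein, was at 133, 91.8, 52.2 and 68.4 FPKM against 39.5, 32.1 and 39.2 FPKM in samples 9, 6 and 7, and under 0.1 FPKM in samples 2 and 4. Its difference of -3.18 was -0.69 without samples 1 to 4. The phosphatase gene Lhpp had the same arrangement, at -3.17 and -1.04, and the transcriptional regulator gene Sap30bp, near 0 in samples 2 and 9, stood at -3.27 and -2.48.

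Pseudogenes took a larger share of the called genes, above all of the higher ones, than of all genes looked at. Of the 45 higher genes, 17 (37.8%) were annotated as pseudogenes in GENCODE M21, against 5 of the 38 lower genes (13.2%) and 632 of the 8115 genes looked at (7.79%). Of the called genes with an M21 transcript, 17 of 41 higher and 6 of 38 lower ones shared at least 50% of their 31-base words with a transcript of another gene, a share that was not computed over all genes. Fragments from such genes can be assigned to the wrong copy or left out as multi-mapped, so the levels of copies and parents below are uncertain. The genes of the next 4 paragraphs were chosen after their values were seen, except Mir692-1.

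The largest difference of any called gene was that of Rps3a3, an intronless copy of the ribosomal protein gene Rps3a1 (chromosome 13, 108670603 to 108671397, plus strand). Over 795 aligned bases of the Rps3a1 coding sequence the copy differs at 9 and is 98.9% identical, which leaves few bases by which a read can be placed. The 90 bases below run from base 171 to base 260 of the coding sequence, chr13:108670773-108670862 of GRCm38 for the copy, and are shown because no other stretch of this length holds more mismatches; capitals mark the 2 mismatched bases.
Rps3a3: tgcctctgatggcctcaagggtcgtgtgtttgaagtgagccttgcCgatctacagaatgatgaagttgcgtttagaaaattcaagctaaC
Rps3a1: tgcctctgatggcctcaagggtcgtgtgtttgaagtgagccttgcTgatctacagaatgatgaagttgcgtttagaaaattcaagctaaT

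Rps3a3 was at 47.3, 217, 46.3 and 105 FPKM in P0 samples 1, 3, 5 and 8. It was at 1.14, 0.741, 7.61, 0.479 and 1.03 FPKM in P2-P3 samples 2, 9, 4, 6 and 7 and at 0.289 FPKM in the P1 neuron, so the day-of-birth neurons stood alone. The difference in log2(FPKM + 1) was -5.09, with -4.79 within Dbx1-derived and -5.58 within WT neurons. The parent Rps3a1 showed no such split: it was at 459, 1098, 154 and 338 FPKM at P0 and at 515, 343, 1393, 263 and 339 FPKM at P2-P3. Gm5586, another copy, was at 8.29, 26.7, 5.12 and 12.1 FPKM at P0 and at 0.679 to 3.29 FPKM at P2-P3. Rps3a2 was at 55.6 to 317 FPKM at P0 and at 17.1 to 33.2 FPKM in 4 later neurons, but at 236 FPKM in sample 4, and was not called.

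Of the ferritin light chain family, 1 copy separated the ages. Ftl1, which encodes the iron-storing subunit, was at 701, 2551, 1011 and 1383 FPKM at P0 and at 3943, 1261, 13044, 462 and 447 FPKM at P2-P3, which overlap, with sample 4 the highest. Its copy Ftl1-ps2 was at 55.0, 400, 27.0 and 234 FPKM at P0 and at 1.00, 0.0825, 2.72, 15.3 and 23.9 FPKM at P2-P3, with 0.298 FPKM at P1. The copy Ftl1-ps1 overlapped, at 178 to 1746 FPKM at P0 and 59.3 to 679 FPKM at P2-P3, and was not called. The difference of Ftl1-ps2 was -7.26 within WT but -0.97 within Dbx1-derived neurons; the difference between lines was not tested. The annotated microRNA locus Mir692-1, called lower at -3.60, shares 32.9% of its 31-base words with Ftl1-ps1, and its fragments in cDNA of this kind were not taken as mature microRNA.

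Copies higher at P2-P3 had parents that were called (Trmt112), did not overlap (Cycs) or overlapped (Atp5l, Ccl19). Trmt112, an activator of several methyltransferases, was at 0.152, 45.9, 49.1 and 36.5 FPKM at P0 and at 88.6, 62.1, 72.5, 64.2 and 76.5 FPKM at P2-P3, and its copies Trmt112-ps1 and Trmt112-ps2, the latter with every 31-base word in Trmt112, were called as well. The P1 neuron, at 25.4 FPKM, was within the P0 range. Trmt112 also overlaps Prdx5 on the opposite strand over 409 bases. The cytochrome c gene Cycs was at 36.7, 107, 144 and 115 FPKM at P0 and 146 to 220 FPKM at P2-P3, which did not overlap, but its difference of 0.92 was under 1, whereas its copies Gm10053 (1.77) and Gm10108 (1.32) were called. Gm10221, every 31-base word of which lies in the ATP synthase gene Atp5l, was called at 1.39, at 53.4, 355, 233 and 194 FPKM against 359 to 610 FPKM, while Atp5l itself overlapped at 19.8 to 46.4 against 30.3 to 45.3 FPKM. Ccl19-ps3 and 2 other loci like Ccl19 were called higher as well, and Ccl19-ps3 was at 0.433, 35.8, 28.5 and 24.3 FPKM at P0 and 37.4 to 159 FPKM later. Ccl19 itself overlapped, at 0.157 to 12.1 FPKM against 10.2 to 44.1 FPKM, and was not called. Sample 1 was the lowest neuron for all of these except Atp5l, and without it Trmt112 (0.72), Gm10053 (0.75), Gm10108 (0.68) and Gm10221 (0.84) were no longer called, with 31 of the 45 genes higher at P2-P3 still called.

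**Figure D4:**
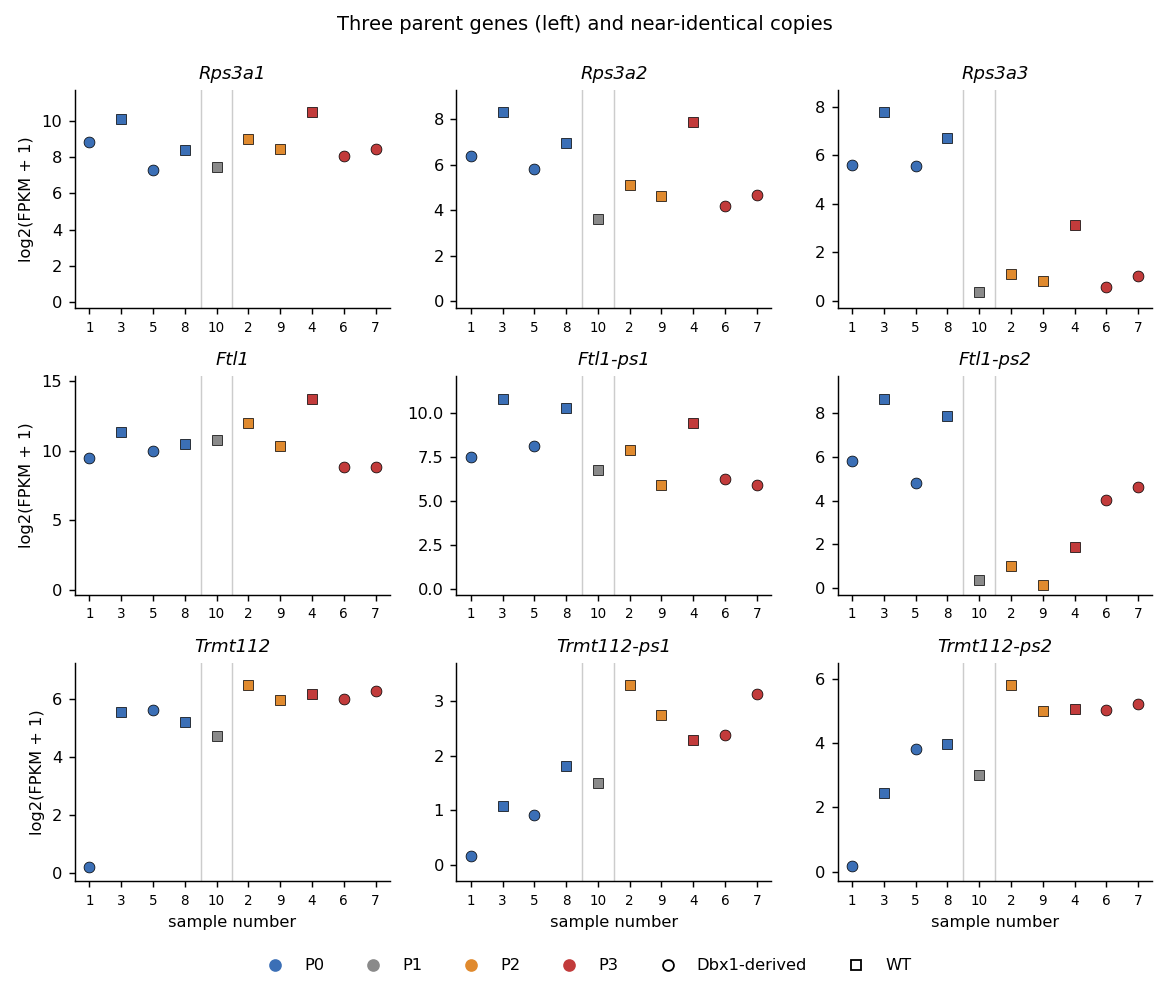
Levels in log2(FPKM + 1) of the parent genes Rps3a1, Ftl1 and Trmt112 (left column) and of near-identical copies, 1 point per neuron, with P0 left, P1 in the middle and P2 to P3 right. Rps3a3 lies at 46.3 FPKM or more in every P0 neuron and at 7.61 FPKM or less in every other one, while its parent overlaps between the ages.

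The 26 gene lists together held called genes at about the same share as all genes did. Of 403 listed genes looked at, 2 were called higher (Ndufa4 and Atp5d) and 4 lower (Dcx, Fdps, Celf1 and Mbd2), 1.49% against 1.02% over all genes, a share near the background. List medians are medians over members of the difference in log2(FPKM + 1), P2-P3 minus P0, and the median over all 8115 genes was 0.03. That median was 0.45 within Dbx1-derived and -0.30 within WT neurons, so list medians within a line have to be read against different centres. For 5 lists the median kept its sign under all 20 alternative settings: the nuclear-encoded respiratory chain and the immediate early genes above 0, and cholesterol synthesis, perineuronal matrix and cell cycle below 0, although in the last pair only 4 members each were looked at. These signs are set against 0, while the median over all genes itself ran from -0.30 to 0.45 over the same settings. The settings also share neurons.

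The nuclear-encoded respiratory chain held both listed genes called higher. Of its 39 members 27 had a difference above 0 and 2 were called higher (the share among all genes was 0.555%), and the median was 0.38, or 0.09 without sample 1, 0.19 without samples 1 and 4 and 0.04 within WT neurons. Ndufa4, a subunit associated with cytochrome c oxidase, was at 1.59, 137, 131 and 191 FPKM in P0 samples 1, 3, 5 and 8, at 274, 257, 193, 223 and 273 FPKM in P2-P3 samples 2, 9, 4, 6 and 7, and at 288 FPKM at P1. Atp5d, the delta subunit of ATP synthase, was at 29.7, 157, 213 and 211 FPKM against 313, 329, 242, 291 and 276 FPKM, with 248 FPKM at P1. Both were lowest in sample 1, and without it their differences went from 2.15 to 0.68 and from 1.25 to 0.59, under the size needed for a call. The most abundant members overlapped: Cox8a was at 555 to 1523 FPKM against 585 to 1672 FPKM, and Atp5b at 341 to 865 FPKM against 96.5 to 992 FPKM. Ndufab1, a complex I and fatty acid synthesis carrier protein outside the list that was chosen after its values were seen, was at 1.01, 14.9, 20.5 and 16.3 FPKM against 35.7, 36.0, 23.4, 34.7 and 25.4 FPKM, a difference of 1.59 that was 0.80, and no longer called, without sample 1.

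All 13 mitochondrially encoded proteins had a difference above 0, with a median of 0.60, but the median was -0.14 without samples 1 and 4. Their level overlapped between the ages: mt-Co3 was at 3832, 22493, 637 and 12324 FPKM at P0 and at 19250, 20948, 37932, 540 and 3071 FPKM at P2-P3. At both ages every WT neuron (12324 to 37932 FPKM) was above every Dbx1-derived neuron (540 to 3832 FPKM). The WT neuron of P1 was at 1054 FPKM, and this split by line was not tested. The share of counted fragments on mitochondrial genes ranged from 0.253% to 7.83% at P0 and from 0.219% to 9.85% at P2-P3. Over both ages it was 5.05% to 9.85% in WT and 0.219% to 1.25% in Dbx1-derived neurons, with 0.347% in the P1 neuron. Cytoplasmic ribosomal proteins changed sign in the same way, with 55 of 78 above 0 and a median of 0.28, but -0.21 without sample 4, the library with the highest mean level of that list.

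Cholesterol synthesis was the list with the lowest median among those with at least 5 members looked at. Of 18 members 13 had a difference below 0, 1 was called lower (the share among all genes was 0.468%), and the median was -1.005, or -0.55 without samples 1 and 4. The called gene, Fdps, makes farnesyl diphosphate, the branch point to sterols and isoprenoids. It was at 15.5, 5.84, 2.54 and 7.94 FPKM in P0 samples 1, 3, 5 and 8 and at 0.151, 0.280, 0.0565, 0.0906 and 0.157 FPKM in samples 2, 9, 4, 6 and 7, with 1.04 FPKM in the P1 neuron, between the ranges. The later neurons were all under 1 FPKM, and the difference was -2.76 over all, -2.76 within Dbx1-derived and -2.75 within WT neurons. Fdps shares 1124 exon bases with Gm43738 on the same strand, so reads of the pair could not all be told apart. Other enzymes overlapped: Hmgcs1 was at 0.397, 37.95, 149 and 121 FPKM at P0 and 149, 61.8, 3.27, 20.4 and 95.0 FPKM later, and Acat2 was at 94.4 to 130 FPKM against 16.7 to 118 FPKM.

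Genes of young neurons gave 1 called member of 24 (0.468% of all genes were called lower), Dcx, a microtubule-binding protein of migrating and newly differentiated neurons. Dcx was at 27.4, 25.5, 17.5 and 19.02 FPKM in P0 samples 1, 3, 5 and 8, at 4.81, 8.54, 0.0269, 15.4 and 11.4 FPKM in P2-P3 samples 2, 9, 4, 6 and 7, and at 19.3 FPKM at P1. The P0 neurons were alike, at 4.52 ± 0.30 (SD, n = 4 neurons) in log2(FPKM + 1), and the later ones were lower and more spread, at 2.699 ± 1.59 (SD, n = 5). The lowest value was that of sample 4, whose neuronal markers were low as a whole, and the difference of -1.82 was -1.16 without it, -0.63 without samples 1 to 4, -0.69 within Dbx1-derived and -2.58 within WT neurons. The rest of the list did not go with Dcx: 17 of 24 members had a difference below 0, but the list median of -0.42 was 0.63 without sample 4. The growth cone protein gene Gap43 was at 675 to 1597 FPKM at P0 and at 871 to 1512 FPKM in the later neurons other than sample 4, where it was at 55.5 FPKM. Tuba1a and Tubb2a, tubulins of growing neurites, likewise overlapped.

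Synaptic and excitability genes held no called member, at a share of 1.02% called over all genes, so that 0 of 72 is near that share. No member was called among 27 genes of synaptic vesicle release, 12 of the postsynaptic scaffold, 8 AMPA and NMDA receptor subunits, 10 GABA-A and glycine receptor genes, or 15 sodium, potassium and HCN channel subunits. Their medians of -0.47, -0.53, -0.85, -0.02 and -0.14 became 0.19, -0.35, -0.19, 0.28 and 0.18 without sample 4. Within the mouse lines they pointed apart, at 0.72 in Dbx1-derived and -1.35 in WT neurons for vesicle release and at 1.39 and -1.39 for GABA-A and glycine receptors; this difference between lines was not tested. Among Dbx1-derived Type-1 neurons (5 against 6 and 7), which leave out sample 1, these medians were -0.08 and 0.12. Sample 1 had the lowest mean level of both lists among Dbx1-derived neurons, and sample 4 among WT neurons. Cplx1, which clamps vesicle fusion, was at 2.28, 185, 464 and 258 FPKM at P0 and at 469, 414, 2.30, 556 and 647 FPKM at P2-P3, low in samples 1 and 4. Gria2, the AMPA receptor subunit that blocks calcium entry, was at 43.6, 0.126, 40.8 and 54.3 FPKM against 0.0656, 14.2, 0.232, 73.0 and 110 FPKM, near 0 in samples 3, 2 and 4. Glrb, the glycine receptor beta subunit, was at 0.201, 0.124, 106 and 59.5 FPKM against 0.130, 120, 0.0803, 97.6 and 112 FPKM. Each of the 3 was near 0 in some of the low-level libraries 1 to 4, at both ages.

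Chloride transport, whose reversal makes GABA and glycine inhibitory in maturing neurons, held no called gene either. The exporter gene Slc12a5 (KCC2) was at 0.0188, 0.00862, 7.59 and 6.13 FPKM in P0 samples 1, 3, 5 and 8 and at 0.830, 1.45, 0.0182, 3.01 and 2.52 FPKM in P2-P3 samples 2, 9, 4, 6 and 7, with 5.99 FPKM at P1. The importer gene Slc12a2 (NKCC1) was at 3.20, 0.908, 0.00500 and 0.372 FPKM at P0 and 0.00758, 1.00, 0.703, 4.34 and 0.232 FPKM later, too low in most neurons to enter the genes looked at. Of the 11 chloride genes looked at 0 were called, near the 1.02% over all genes, and their median of -0.29 was 0.00 without sample 4.

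Immediate early genes, which respond to activity and to handling, had 7 of 8 members above 0 and a median of 1.22, but none was called. Fos was at 0.457, 132, 146 and 60.8 FPKM at P0 and at 302, 190, 26.01, 94.6 and 16.8 FPKM at P2-P3. Ier2 was at 0.245, 0.0211, 0.125 and 15.3 FPKM against 142, 82.9, 124, 13.9 and 0.0255 FPKM. Sample 1 held nearly none of them, with a list mean of 0.17 in log2(FPKM + 1) against 1.75 to 4.497 in the other neurons, P1 included, and without samples 1 and 4 the median was 0.44.

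Regulators of RNA and chromatin gave 1 called gene each, of 22 and 19, where 0.468% of all genes were called lower. Celf1, an RNA-binding protein that controls splicing and mRNA decay, was at 28.1, 24.1, 5.89 and 17.6 FPKM in P0 samples 1, 3, 5 and 8 and at 0.950, 4.35, 4.67, 2.72 and 3.98 FPKM in P2-P3 samples 2, 9, 4, 6 and 7, with 6.68 FPKM at P1. Its difference was -2.11, or -1.29 without samples 1 to 4. The other 21 neuronal RNA-binding genes were not called, among them Rbfox1, at 17.7 to 54.1 FPKM at P0 and 0.0772 to 81.4 FPKM later, and the list median was -0.39, or -0.02 without sample 4. Among 19 chromatin genes, Mbd2 alone was called, and the median of -0.17 was 0.13 without sample 4.

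Peptides used in breathing circuits varied between single neurons. Penk, the enkephalin precursor, was at 0.343, 81.8, 492 and 470 FPKM at P0 and at 32.8, 1.94, 14.0, 799 and 290 FPKM at P2-P3, high in the neurons that carried Slc17a6 at both ages. Sst, the somatostatin precursor, was at 375, 28.0, 10.8 and 22.8 FPKM at P0, and at 25.9, 0, 0, 41.8 and 0.378 FPKM later. The fuel genes also overlapped: Oxct1, needed to burn ketone bodies, was at 68.2 to 302 FPKM at P0 and 52.05 to 276 FPKM later, and glycolysis had a median of -0.14, or 0.22 without samples 1 and 4. No member of the remaining lists was called. Their medians were 0.46 for 13 stress and apoptosis genes, 0.33 for 10 hypoxia response genes, 0.27 for 10 genes of ketone body and fatty acid use, 0.31 for 7 peptide and peptide receptor genes, -0.01 for 9 axon guidance genes and -0.45 for 15 genes of neurofilaments and the axon skeleton. Single libraries turned several of these: without sample 1 the medians were -0.21 for hypoxia, -0.04 for ketone and fat use and -0.51 for peptides, and stress genes were at 0 after rounding, while without sample 4 they were 0.13 for neurofilaments and 0.38 for axon guidance. With only 3 or 4 members looked at, the medians were 1.29 for thyroid hormone action, 1.05 for the glucocorticoid response, -0.90 for fetal growth genes, -0.76 for the cell cycle and -1.53 for perineuronal matrix.

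**Figure D5:**
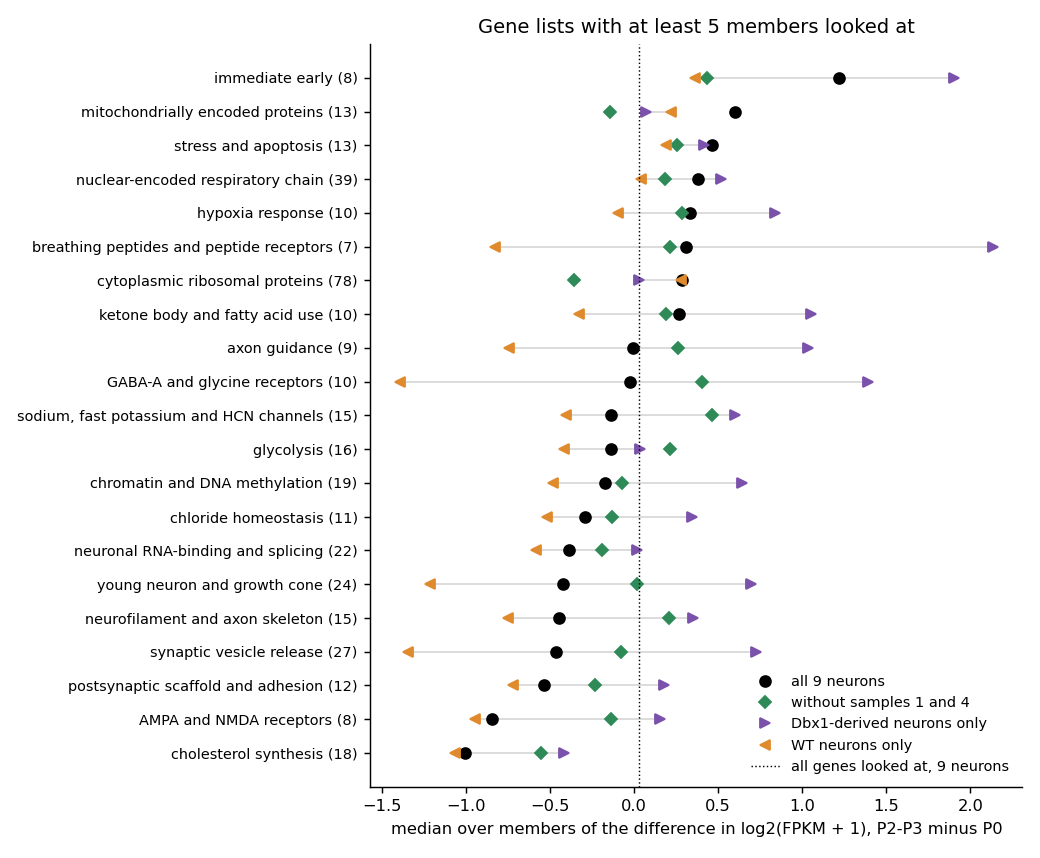
Median difference in log2(FPKM + 1), P2-P3 minus P0, over the members of each gene list with at least 5 members looked at (number in parentheses), for all 9 neurons, without samples 1 and 4, and within each mouse line; the dotted line is the median of all 8115 genes, 0.03. Most lists lie above 0 in Dbx1-derived neurons and below 0 in WT neurons, and cholesterol synthesis lies below 0 in all 4 versions.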

How the data were processed

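Single preBötC neurons in slices of neonatal mouse medulla were recorded and aspirated, and cDNA was made from polyadenylated RNA with a SMART-Seq kit and sequenced as 1 paired-end library per neuron. Per the study's methods, the authors trimmed the reads, aligned them to GRCm38 with STAR (version 2.7.7a in the submitters' processing notes) and counted fragments per gene with featureCounts. Values per gene were used, as the authors deposited them: unnormalized fragment counts, lengths in bases, and FPKM values, which equal the counts divided by gene length and by each neuron's total. The counts carry no molecular identifiers, so intervals cover counting error only. Multi-mapped fragments were not recovered here, and the strand setting is not given in the sources used here.

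Groups followed the ages in the labels. Since no label names an animal, each age was taken as 1 set of cells: neither edgeR's count tests nor any other test between ages was run, and no p-value is given. FPKM values were compared as log2(FPKM + 1), in genes with at least 1 FPKM in at least 4 of 9 neurons, and called when the ages did not overlap, differed by at least 1 and reached 1 FPKM in every neuron of the higher age. TPM was computed from the deposited counts and lengths. Likeness was Spearman's correlation. Exact Poisson intervals were at 95%, and a count of 0 was taken to allow 3 fragments. The call rule was tested on simulated data of well-expressed genes with large changes and a small spread between neurons. Its behaviour in libraries as uneven as these was not tested.

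The members, gene lists, markers and alternatives were chosen with earlier results of these data known. Named genes were the 12 called genes with the largest difference in each direction, leaving out predicted genes, copies whose symbol ends in -ps and a number, ribosomal, mitochondrial and Y-linked genes and Xist; every called list member; the 2 members of highest mean FPKM of each list with at least 5 members looked at; and Slc12a2 and Slc12a5. Of these, 2 genes are not reported here. Single markers, Gap43, Sst, Tmem258, Naa20, Ndufab1, Cycs, Atp5l and the copies with their parents were added after their values were seen. Of 8115 genes looked at, 7985 matched a GENCODE M21 symbol (GRCm38), which gave positions, gene types, exon overlaps and transcript sequences for the shared 31-base words. Alternatives were a pseudocount of 0.1, TPM, TMM-scaled FPKM, no filter on low values, thinned depth, other thresholds, each neuron left out, neurons of 1 mouse line, P3 against P0, and sets without samples 4, 4 and 9, or 1 to 4. Python 3.11.15, pandas 2.3.3, NumPy 2.4.6, SciPy 1.17.1, R 4.3.3 and edgeR 4.0.16 (TMM factors only) were used.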

Additional observations from a re-analysis of the deposited data

Results flagged for a closer look

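A neuron was marked when its gap to the nearest neuron of its age, as a share of the whole range of that age in log2(FPKM + 1), exceeded Dixon's 95% critical value. Of 198 sets of neurons examined (99 genes or lists at each age) 23 were marked, and chance marks about 1 in 20; no cause was tested.

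Most marked values were the lowest at P2-P3 and belonged to sample 4, the microglia-rich library. Its gap was 0.942 of the range for Tuba1a, 0.914 for Tubb2a, 0.76 for Ina, 0.916 for Cplx1, 0.901 for Rab3a, 0.816 for Acat1, 0.729 for Acat2, 0.802 for Atp5b, 0.733 for Hmgb3 and 0.735 for Scg2. The mean levels of young neuron genes (0.794), neurofilament and axon skeleton genes (0.75) and glycolysis genes (0.716) were marked in the same library.

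At P0, sample 1 was lowest for Ndufa4 (0.913) and Atp5d (0.845) and highest for Nrxn3 (0.858). Sample 3 was lowest for Gria2 (0.928), for the mean level of AMPA and NMDA receptor genes (0.898) and for that of sodium, fast potassium and HCN channel genes (0.911), and highest for Polr3d (0.963). Sample 8 was highest for Ier2 (0.928). At P2-P3, sample 2 was highest for Tgs1 (0.78) and sample 6 for Gak (0.912).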

How the results depend on the processing

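The numbers of called genes moved by more than 1.5 times in 30 of 44 recounts, and no difference of a called gene changed its sign in any of them, which the rule that the ages must not overlap fixes when neurons are left out. Leaving out each neuron in turn gave 43 to 111 genes higher at P2-P3, 0.455% to 1.46% of those looked at. It gave 57 to 162 lower, 0.734% to 1.7%. The highest counts came without sample 4 (111 higher, 1.46%) and without sample 3 (162 lower, 1.7%), and without sample 1, 159 genes were lower (1.68%). Leaving out samples 4 and 9 gave 230 higher (2.6%) and 102 lower (1.15%), and leaving out samples 1 to 4, 387 (3.73%) and 1026 (9.9%). Without samples 1 and 4, an alternative chosen after seeing the data, there were 123 (1.38%) and 218 (2.44%). Dbx1-derived neurons alone gave 1710 (18.7%) and 678 (7.42%), and WT neurons alone 306 (3.6%) and 902 (10.6%). P3 against P0 gave 180 (2%) and 101 (1%). The Dbx1-derived set held only a pair of neurons of each age, and groups that small often fail to overlap by order alone. The larger shares within a line are therefore no measure of an effect of age. Of the 45 and 38 genes, 41 and 29 were called in Dbx1-derived and 34 and 37 in WT neurons. A subset of the same neurons keeps the lack of overlap and the level of 1 FPKM. Only a mean difference under 1 could lose a call there, so these counts are no separate support. A difference of at least 2 left 25 higher (0.308%) and 29 lower (0.357%), and with no rule on overlap 319 (3.93%) and 406 (5%). A pseudocount of 0.1, the absence of a filter, thinning and TMM scaling kept both counts within 1.5 times, at 37 to 49 (0.218% to 0.604%) and 31 to 39 (0.184% to 0.48%).

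With a pseudocount of 0.1 the differences of genes near 0 grew, that of Nup62 to 7.28 and that of Clba1 to -7.67. The difference in mean likeness within and between ages, -0.01597, was -0.0132 with Pearson's correlation, -0.0114 without sample 4 and -0.0236 without samples 1 and 4. No paired analysis was possible because the results come from no test and the replicate numbers only name neurons. With 1 set of cells per age, and age mixed with line, type and library quality, an effect of age and a difference between cells cannot be told apart, and a gene near 0 in the low-level libraries may not have been detectable there.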
